A study of Mus musculus with 23 samples.

Results

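The question taken up here was how the transcriptional response of mouse embryonic stem cells to FGF2 and Activin A depended on the ETS repressor ERF when the RAS genes had been deleted. It was read as an interaction: the change from 2iL to FA in the line without ERF, minus the same change in the line with ERF. The 12 RAS deleted libraries of the 23 in the series carry this contrast, taken by their labels, and the other 11 libraries, with RAS present, entered the model and served for 1 comparison at the end.

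The 12 libraries formed 4 groups of 3 replicates. All came from Raslox/lox cells, a background labelled as lacking H-Ras and N-Ras (H-Ras-/-; N-Ras-/-) with the Ubiq-CreERT2 transgene, a tamoxifen-activated recombinase driven by a ubiquitin promoter. All had received 4-hydroxytamoxifen for 6 days, so the effects of the drug and of the RAS deletion cannot be told apart, and both are shared by every group compared. RASKO cells were wild type for ERF and RASERFKO cells were ERF knockout. 2iL is N2B27 medium with the MEK inhibitor PD0325901, the GSK3 inhibitor CHIR99021 and LIF, which holds cells in naive pluripotency. FA cells were plated on fibronectin for 48 hours with 12 ng/ml FGF2, 20 ng/ml Activin A and a serum replacement, without 2iL, a protocol that turns them into epiblast-like stem cells. The move to FA therefore removed both inhibitors and LIF and added both factors at once. After ribosomal RNA depletion, strand-specific libraries were read as 75 bp pairs. The labels do not say how many clones each line represents, nor whether the replicates were separate cultures, so p-values measure the spread between these libraries, which may be technical.

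FGF receptors signal through RAS to the kinases MEK and ERK. ERF binds DNA through an ETS domain and represses its targets, and phosphorylation by ERK moves it out of the nucleus, so that ERF is most active when ERK signalling is low. In the epiblast, naive genes such as Klf4 and Esrrb are shut off and formative genes such as Fgf5, Pou3f1 and Dnmt3b are switched on, and FGF and ERK signalling are known to be needed for that step. RASKO cells in FA thus meet an FGF signal without RAS and with ERF in place, and RASERFKO cells meet it with neither.

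Levels are given as counts per 1000000 counts (CPM) on library sizes scaled by TMM, and changes as log2 differences with their standard error (SE). A gene was called when its adjusted p (edgeR quasi-likelihood test, Benjamini-Hochberg over all 20372 genes tested) was under 0.05 and the change was at least 2-fold. A positive interaction means that the move to FA raised the gene more, or lowered it less, in RASERFKO than in RASKO. A negative interaction means the opposite.

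Erf, Hras and Nras were looked at first; the RAS deletion by 4-hydroxytamoxifen is taken from the labels and its check is not reported here. No drop in Erf RNA marked the RASERFKO libraries: Erf (chr7:25242560-25251104) stood at 90.2, 83 and 90.1 CPM in RASKO in 2iL and 74.4, 66.8 and 67.9 CPM in FA, against 172, 153 and 129.8 CPM and 49.3, 64.5 and 67.9 CPM in RASERFKO. In 2iL the RASERFKO libraries were thus all above the RASKO libraries, and in FA the groups overlapped. Gene-level counts do not show whether a transcript is intact, so they check nothing about the ERF lesion. Its interaction was -0.99 (SE 0.19, adjusted p = 0.000412), just under the 2-fold minimum; it lay just past that minimum and was called in 14 of 20 alternatives, at -1.01 with the 12 libraries alone and with the replicate number as a block within each line (adjusted p = 0.00044 and 0.0092). Hras RNA had a mean of 13.5 ± 0.695 CPM (SD, n = 3) in RASKO in 2iL and an interaction of 0.36 (SE 0.14, adjusted p = 0.0552). For Nras the interaction was -0.51 (SE 0.78, adjusted p = 0.686), and 1 RASERFKO library in 2iL, replicate 2, had 5.32 CPM where its fellow replicates had 52.3 and 34.8. Reads were thus counted for both genes in a background labelled H-Ras-/- and N-Ras-/-. Gene-level counts do not show whether these transcripts are intact either, so they check nothing about that label.

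Total counts ran from 16.2 to 29.1 M per library (M for 1000000 counts), with a median of 21.7 M. The pluripotent cell markers were high in all groups: group means ran from 280.4 to 697 CPM for Pou5f1, from 95.3 to 257 for Sox2, from 233 to 465 for Sall4 and from 172 to 558 for Nanog. The 3 RASKO libraries in FA differed among themselves. Replicate 1 was the highest of the 3 for 16 of 19 naive genes and the lowest for 16 of 18 formative genes, and replicate 3 was the highest for 16 of the 18 formative genes. Replicate 1 of RASKO also had raised expression along chromosome 8 in both media, with a median log2 excess of 0.25 in 2iL and 0.26 in FA, where the other 10 libraries lay between -0.04 and 0. Calls named below that were lost without this culture are given with their value or their count without it. Among the called genes named below, Kifc3, Junb, Col4a1, Col4a2, Tubb3, Marveld3, Klf2, Zfp42, Sox1, Bst2, Psmb10 and Nkd1 lie on chromosome 8, as do Cdh1 and Fgfr1, which were not called. Of the tested genes on that chromosome 98 of 873 were called, 11.2%, against 12.1% of those on other chromosomes.

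The interaction was called for 2308 of 20372 genes, 11.3%. Of these, 1138 were higher (5.59% of the genes tested) and 1170 were lower (5.74%), and the median over all genes was 0.01. Without the 2-fold minimum 5375 genes passed (26.4%). In RASERFKO the response to FA was called for 5076 genes (24.9%), 14.5% of the genes tested being higher and 10.4% lower, and in RASKO for 3371 (16.5%), 9.96% higher and 6.59% lower. Among the 1138 genes with a higher interaction, 598 rose in FA in RASERFKO and were not called in RASKO, 163 rose in both lines, 172 fell in RASKO and were not called in RASERFKO, and 32 fell in RASKO and rose in RASERFKO. Their median response to FA was -0.11 in RASKO and 1.67 in RASERFKO. Among the 1170 with a lower interaction, 559 fell in RASERFKO and were not called in RASKO, 130 fell in both, 243 rose in RASKO and were not called in RASERFKO, and 49 rose in RASKO and fell in RASERFKO. Here the median response was 0.32 in RASKO and -1.41 in RASERFKO. These medians describe genes chosen by the same contrast and carry no test. Leaving out the RASKO culture with raised chromosome 8 expression, a check added after the data were seen, left 2095 calls, of which 1875 were among the 2308 with the same sign.

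**Figure D1:**
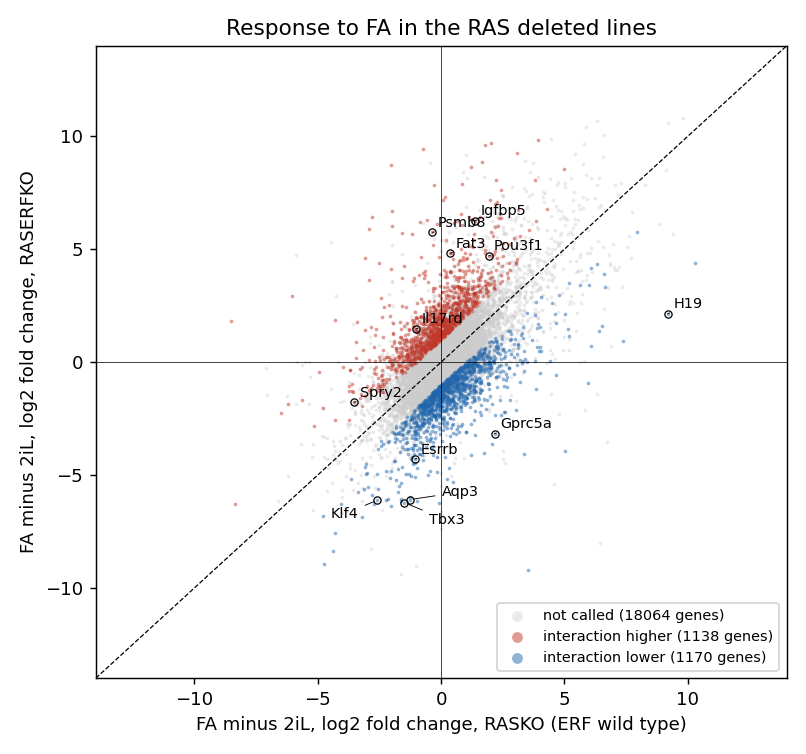
Each point is 1 of the 20372 genes tested, with its log2 change from 2iL to FA in RASKO on the x axis and in RASERFKO on the y axis; the dashed line marks equal responses, and 12 of the genes named in the text are ringed. The 1138 genes with a higher interaction (red) lie above the line and the 1170 with a lower one (blue) lie below it, and Klf4, Tbx3 and Aqp3 lie far below zero on the y axis.

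The same contrast can be read as the difference between the ERF genotypes in each medium. In 2iL 5.83% of the genes tested were called higher and 7.15% lower in RASERFKO, and in FA 8.13% higher and 8.48% lower. Of the 1138 higher genes, 433 were called higher in RASERFKO than in RASKO in FA alone, 326 were called lower in RASERFKO in 2iL alone, and 63 were called lower in 2iL and higher in FA. Of the 1170 lower genes, 507 were called lower in RASERFKO in FA alone, 267 were called higher in 2iL alone, and 43 were called higher in 2iL and lower in FA. In 267 higher and 230 lower genes the genotypes differed by the call rule in neither medium. A called interaction therefore did not always mean a genotype difference in FA, and for genes below that are given by their interaction alone the medium is not stated.

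ERF belongs to the ETS family, whose members bind a GGAA core, and the hexamer CCGGAA (either strand, so also TTCCGG) and the octamer CCGGAAGT, which contains it, were counted in RefSeq promoters (GRCm38.p6, 250 bases before to 50 after the start). CCGGAA was present in 102 of 727 promoters of higher genes (14.03%), in 142 of 790 promoters of lower genes (17.98%) and in 3538 of 12852 promoters of all tested genes (27.5%). CCGGAAGT was present in 2.2%, 2.78% and 7.79% of them. Both gene groups thus held these letters less often than the promoters of all tested genes, a description with no test. The windows below are 60 bases of promoters of 6 called genes that hold the hexamer, shown in capitals within lower case, 5′ to 3′ on the gene's strand. The windows are Sdc4 (chr2:164443232-164443291, minus strand), Sox2 (chr3:34649930-34649989, plus strand), Bmp4 (chr14:46390732-46390791, minus strand), Ccnd3 (chr17:47593302-47593361, plus strand), Vim (chr2:13574178-13574237, plus strand) and Gata3 (chr2:9878771-9878830, minus strand). The first 4 genes had a lower interaction and the last 2 a higher one, and a match to these letters shows no binding.
Sdc4: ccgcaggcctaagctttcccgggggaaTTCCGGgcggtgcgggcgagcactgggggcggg
Sox2: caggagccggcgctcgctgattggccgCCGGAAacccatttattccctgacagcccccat
Bmp4: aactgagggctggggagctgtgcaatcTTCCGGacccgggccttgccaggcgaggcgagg
Ccnd3: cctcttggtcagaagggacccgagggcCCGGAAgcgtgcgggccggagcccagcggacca
Vim: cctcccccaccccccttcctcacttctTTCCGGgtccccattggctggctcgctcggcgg
Gata3: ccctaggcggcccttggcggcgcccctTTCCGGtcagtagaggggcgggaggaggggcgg

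Most naive pluripotency genes, 15 of 19, fell further or rose less in FA in RASERFKO than in RASKO. All 19 were tested, 15 had a called lower interaction and 2 a called higher one, where 5.74% and 5.59% of all genes were called lower and higher. Their median interaction was -2.03, with a median response to FA of -0.59 in RASKO and -2.95 in RASERFKO. In RASKO 8 of the 19 fell in FA (6.59% of all genes), and in RASERFKO 16 fell (10.4%). Without the RASKO culture with raised chromosome 8 expression, 13 remained called lower and the median was -1.90; Manba and Tdh were the members no longer called, and Tdh also lost its call with the replicate block within each line (adjusted p = 0.0645). In these bulk libraries, fewer cells in a naive state and less RNA per cell cannot be told apart.

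Klf4 (chr4:55527137-55532475), a Kruppel-like factor of the naive network, stood at 233, 221 and 233 CPM in RASKO in 2iL and 46.4, 35.1 and 32.6 CPM in FA, against 314, 302 and 335 CPM and 4.89, 3.27 and 5.51 CPM in RASERFKO. The 2iL levels were high in both lines, RASKO kept an intermediate level in FA, and every RASERFKO library in FA was below every RASKO library. Its interaction was -3.52 (SE 0.18, adjusted p = 1.22e-11), from responses to FA of -2.59 in RASKO and -6.12 in RASERFKO. Esrrb (chr12:86361117-86521628), an orphan nuclear receptor, had 377, 387 and 441 CPM (2iL) and 221, 185 and 173 CPM (FA) in RASKO and 541, 586 and 595 CPM (2iL) and 30.7, 26.9 and 30.2 CPM (FA) in RASERFKO. It followed the same order, with an interaction of -3.24 (SE 0.19, adjusted p = 1.35e-10). Tbx3 (chr5:119670534-119684724), a T-box factor, had 336, 327 and 339 CPM (2iL) and 179.7, 95.5 and 78.3 CPM (FA) in RASKO and 439, 448 and 497 CPM (2iL) and 7.27, 5.84 and 5.3 CPM (FA) in RASERFKO. The RASKO libraries in FA spread widely, replicate 1 being the highest, yet none came near the RASERFKO libraries, and the interaction was -4.72 (SE 0.37, adjusted p = 1.09e-07). Prdm14, which represses FGF signalling genes and DNA methyltransferases in naive cells, did not pass the call rule for its response in RASKO (-0.45) and fell by 3.49 on the log2 scale in RASERFKO, giving an interaction of -3.05 (SE 0.30, adjusted p = 2.60e-07).

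Tfcp2l1, a factor of the LIF and WNT arms of the naive network, had 1101, 1210.0 and 1225 CPM (2iL) and 252, 189 and 157 CPM (FA) in RASKO and 1065, 1204 and 1308 CPM (2iL) and 23.8, 22.6 and 27 CPM (FA) in RASERFKO. It fell in both lines, and further in RASERFKO, with an interaction of -3.04 (SE 0.22, adjusted p = 5.20e-09). Zfp42 (Rex1), a widely used naive marker, did not pass the call rule in RASKO (0.36) and fell by 2.06 on the log2 scale in RASERFKO, with an interaction of -2.42 (SE 0.25, adjusted p = 1.02e-06). The other naive genes called lower were Tcl1 (-2.86), Spp1 (-2.34), Nr5a2 (-2.17), Tdh (-2.03), Nr0b1 (-2.00), Klf2 (-1.80), Dppa5a (-1.61), Klf5 (-1.39) and Manba (-1.10). Nanog, the homeodomain factor, did not reach 2-fold, at -0.84 (SE 0.21, adjusted p = 0.00447). Its levels were 609.8, 525 and 541 CPM (2iL) and 588, 453 and 331 CPM (FA) in RASKO and 400.3, 378 and 352 CPM (2iL) and 169.7, 175 and 171 CPM (FA) in RASERFKO, so that the RASERFKO cells began lower in 2iL and ended lower in FA. Leaving out RASKO replicate 3 in FA brought Nanog to -1.03, past the call rule. The 2 members with a higher interaction were Gbx2, at 1.53 (SE 0.34, adjusted p = 0.00185), and Dppa3 (Stella), at 1.46 (SE 0.40, adjusted p = 0.0094). Dppa3 fell in FA in RASKO by 1.28 on the log2 scale from 51.2 ± 3.55 CPM (mean ± SD, n = 3), while in RASERFKO it was already at 1.38 ± 0.639 CPM in 2iL.

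Genes shared by naive and formative cells also leaned downward. Of 8 such genes, 4 had a called lower interaction (5.74% of all genes), with a list median of -0.93. Sox2, a partner of OCT4, stood at 233, 263 and 248 CPM in RASKO in 2iL and 264, 271 and 237 CPM in FA, against 208, 233 and 237 CPM and 87.3, 94.9 and 104 CPM in RASERFKO. The RASERFKO libraries in FA stood apart, below all others, and the interaction was -1.30 (SE 0.16, adjusted p = 2.16e-06). Pou5f1, which encodes OCT4, had 533, 522 and 532 CPM (2iL) and 514, 395 and 396 CPM (FA) in RASKO and 669.8, 718 and 703 CPM (2iL) and 272, 282 and 287 CPM (FA) in RASERFKO. All RASERFKO libraries in FA were below the RASKO ones, and the interaction was -1.03 (SE 0.11, adjusted p = 4.74e-07); it dropped below 2-fold, to -0.90, without the culture with raised chromosome 8 expression. Lin28a, an RNA-binding protein that blocks let-7 processing, rose in both lines, by 4.76 in RASKO from a lower start and by 2.96 in RASERFKO, with an interaction of -1.80 (SE 0.48, adjusted p = 0.0101). Utf1, a chromatin-associated factor, rose in RASKO, did not pass the call rule in RASERFKO, and had an interaction of -1.12 (SE 0.15, adjusted p = 1.08e-05), which fell under 2-fold (-0.97) without RASKO replicate 3 in FA.

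Formative genes were induced in both lines, and some of them more strongly without ERF. In each line 15 of the 18 formative genes rose in FA, where 9.96% of all genes rose in RASKO and 14.5% in RASERFKO. The interaction was called higher for 7 of the 18 (5.59% of all genes), with a median of 0.96 and median responses of 1.78 in RASKO and 2.83 in RASERFKO. Without the RASKO culture with raised chromosome 8 expression 4 of the 18 were called and the median was 0.72; Lin28b, Sfrp2 and Zic2 were lost. By library, the median response of the list was 1.06, 1.52 and 1.94 in the RASKO replicates 1, 2 and 3, and 2.60 in each of the 3 RASERFKO replicates. The RASKO libraries were spread out, and all lay below the RASERFKO libraries.

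Pou3f1 (OCT6; chr4:124657646-124660655), a POU factor of the formative epiblast, stood at 3.28, 2.89 and 2.61 CPM in RASKO in 2iL and 4.38, 9.44 and 19.2 CPM in FA, against 1.76, 2.91 and 2.09 CPM and 57.3, 63.8 and 56.1 CPM in RASERFKO. RASKO replicate 3 in FA came closest to the RASERFKO libraries and replicate 1 stayed near its 2iL level, and the groups in FA did not overlap. Its interaction was 2.78 (SE 0.63, adjusted p = 0.0035). Dnmt3b (chr2:153649411-153687730), a de novo DNA methyltransferase, had 44, 57.1 and 54.1 CPM (2iL) and 62, 105 and 187 CPM (FA) in RASKO and 40.3, 38.9 and 47.8 CPM (2iL) and 332, 346 and 340.0 CPM (FA) in RASERFKO. The RASERFKO libraries in FA were tightly grouped above all others, with an interaction of 1.81 (SE 0.41, adjusted p = 0.00325). Sall2, a zinc finger factor, rose by 1.08 in RASKO and by 3.56 in RASERFKO, with an interaction of 2.49 (SE 0.13, adjusted p = 1.22e-11). The remaining calls were Cdh2 (1.70), Lin28b (1.17), Sfrp2 (1.11) and Zic2 (1.00). Zic2 stood at the 2-fold minimum and fell below it in 12 of 20 alternatives, among them DESeq2, the 12 libraries alone and the replicate block within each line (0.99). Sfrp2 lost its call in 7 alternatives (adjusted p up to 0.155), 6 of which left out 1 library, and Lin28b in 2, without RASKO replicate 1 in 2iL or in both media. Cdh2, which encodes N-cadherin, lost its call in 6 alternatives, among them the fits to the 12 libraries alone (adjusted p = 0.0755) and without RASKO replicate 2 in 2iL (adjusted p = 0.104).

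Fgf5, the classic formative ligand, was at most 3 counts in every RASERFKO library in 2iL, so its fitted interaction (4.33, adjusted p = 0.38) is no measure of size. Its levels in FA were 1.71, 7.13 and 20.6 CPM in RASKO and 42.6, 45.2 and 35.5 CPM in RASERFKO, without overlap. The response in RASERFKO was at least 228-fold, against a floor of 3 counts per library. The call rule was passed with a replicate block within each line (adjusted p = 0.0031), with DESeq2 and without the low-count filter. Otx2, the homeodomain factor that drives the formative state, rose in both lines, by 3.94 in RASKO and 4.85 in RASERFKO. Its levels in FA were 34.4, 58.3 and 63.6 CPM in RASKO and 29.5, 31.7 and 37.6 CPM in RASERFKO, where the groups overlapped, and its interaction was 0.91 (SE 0.34, adjusted p = 0.0546), not called. It passed the call rule without RASKO replicate 3 in either medium (1.08 in FA and 1.05 in 2iL).

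**Figure D2:**
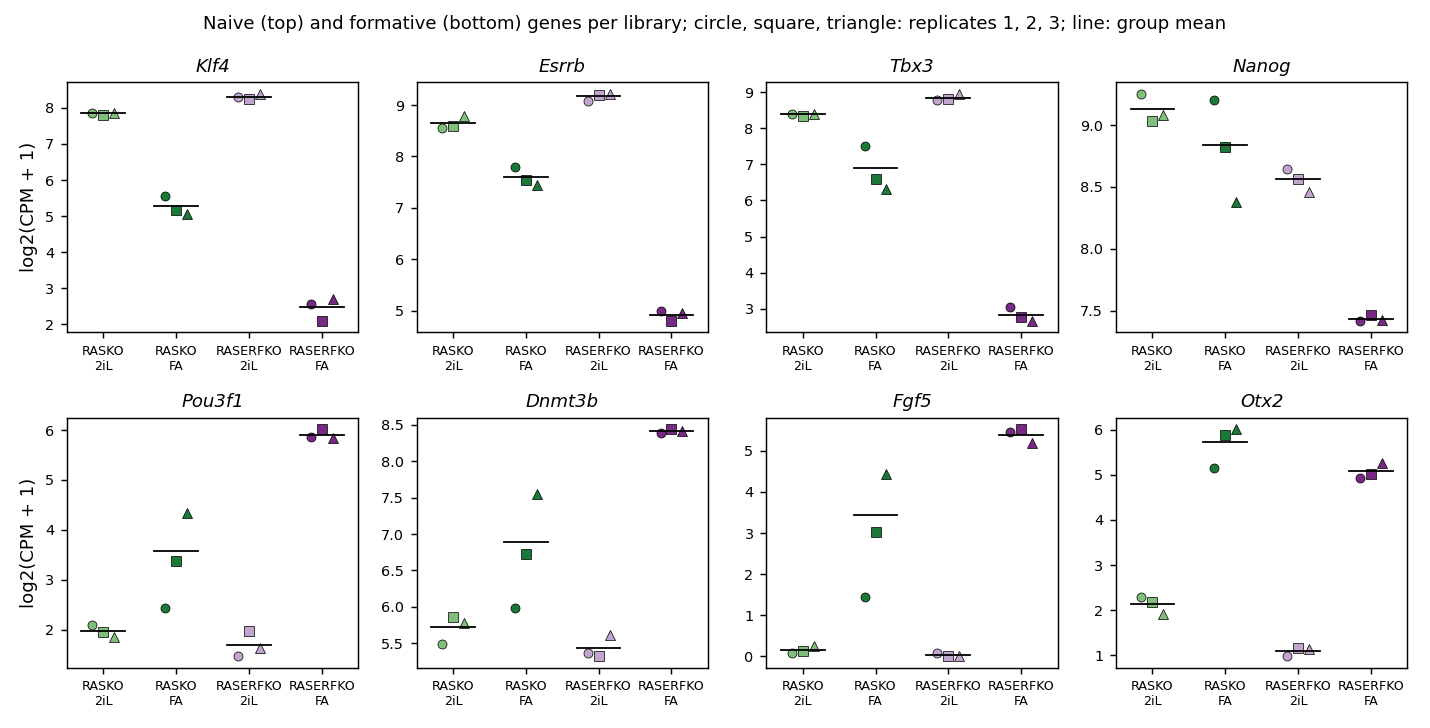
The y axes give log2(CPM + 1) per library for 4 naive genes (top) and 4 formative genes (bottom) in the 4 groups on the x axis; circles, squares and triangles are replicates 1, 2 and 3, and the line is the log2 of the group's mean CPM + 1. Klf4, Esrrb and Tbx3 reach their lowest levels in RASERFKO in FA, and RASKO replicate 1 in FA (dark green circle) is the highest of its group for the naive genes and the lowest for Pou3f1, Dnmt3b, Fgf5 and Otx2.

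Genes that report or restrain ERK signalling split by gene. Of 25 such genes 23 were tested, 6 had a called higher interaction and 3 a called lower one (5.59% and 5.74% of all genes), and the median was 0.21, with median responses to FA of -0.03 in RASKO and -0.06 in RASERFKO. Spry2 (chr14:105891947-105896819), an inhibitor of receptor tyrosine kinase signalling, stood at 39.8, 46.4 and 47.8 CPM in RASKO in 2iL and 2.94, 3.44 and 5.14 CPM in FA, against 78.6, 93.9 and 85.5 CPM and 25.1, 24 and 26.1 CPM in RASERFKO. The RASKO libraries in FA were the lowest, and each RASERFKO group was above the RASKO group in the same medium. Spry2 fell by 3.52 in RASKO and by 1.78 in RASERFKO, with an interaction of 1.74 (SE 0.21, adjusted p = 3.13e-06). Il17rd (Sef), a membrane inhibitor of FGF signalling, had 36.7, 33.5 and 36.2 CPM (2iL) and 21.1, 15.7 and 15.8 CPM (FA) in RASKO and 53.1, 55.4 and 56.1 CPM (2iL) and 149, 162 and 146 CPM (FA) in RASERFKO. It fell in RASKO and rose in RASERFKO, and all RASERFKO libraries in FA were above all others, with an interaction of 2.49 (SE 0.14, adjusted p = 2.22e-11). Spred1, which recruits neurofibromin to RAS, fell in RASKO by 1.10 and in RASERFKO had a response of 0.29 that was not called, with an interaction of 1.39 (SE 0.13, adjusted p = 2.92e-08).

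Dusp5, a nuclear ERK phosphatase, had an interaction of 1.57 (SE 0.24, adjusted p = 3.99e-05) and rose in RASERFKO. Ccnd1, which encodes cyclin D1, and Etv1, an ETS activator, were instead set apart by their levels in 2iL. Ccnd1 had 76.6, 79 and 72.9 CPM (2iL) and 92.9, 95.8 and 123 CPM (FA) in RASKO and 13.4, 10.8 and 11.3 CPM (2iL) and 69.2, 70.5 and 42.9 CPM (FA) in RASERFKO, so that RASERFKO was lower in 2iL and nearer to RASKO in FA, with an interaction of 1.91 (SE 0.42, adjusted p = 0.00268). The Etv1 interaction was 1.78 (SE 0.47, adjusted p = 0.00915), with the RASERFKO mean at 4.24 ± 0.394 CPM in 2iL against 17.6 ± 5.71 CPM (SD, n = 3) in RASKO.

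Spry4, a relative of Spry2, had an interaction of the opposite sign. Its levels were 0.215, 0.203 and 0.194 CPM in RASKO in 2iL and 0.0876, 0.527 and 0.395 CPM in FA, against 5.01, 4.7 and 6.47 CPM and 0.644, 0.694 and 0.539 CPM in RASERFKO. The RASERFKO libraries in 2iL alone were high, and the interaction was -3.83 (SE 0.58, adjusted p = 2.80e-05). Etv4 (PEA3; chr11:101769747-101785310), an ETS activator induced by FGF in many tissues, had 30.3, 38 and 40.4 CPM (2iL) and 2.59, 4.82 and 5.64 CPM (FA) in RASKO and 18.2, 14.2 and 20.4 CPM (2iL) and 0.515, 0.408 and 0.787 CPM (FA) in RASERFKO. It fell in both lines and further in RASERFKO, with an interaction of -1.90 (SE 0.36, adjusted p = 0.000517). Junb, an AP-1 subunit, had an interaction of -1.57 (SE 0.23, adjusted p = 2.29e-05), having started higher in RASERFKO in 2iL. For Dusp6, Etv5 and Egr1, often used as readouts of ERK activity, the interactions were not called, at -0.13 (SE 0.31, adjusted p = 0.814), -0.18 (SE 0.15, adjusted p = 0.426) and 0.30 (SE 0.77, adjusted p = 0.823). Dusp6, a cytoplasmic ERK phosphatase, rose in both lines, from 7.75 ± 2.2 to 19.7 ± 6.72 CPM in RASKO and from 10.1 ± 0.724 to 23.5 ± 1.54 CPM (SD, n = 3) in RASERFKO.

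**Figure D3:**
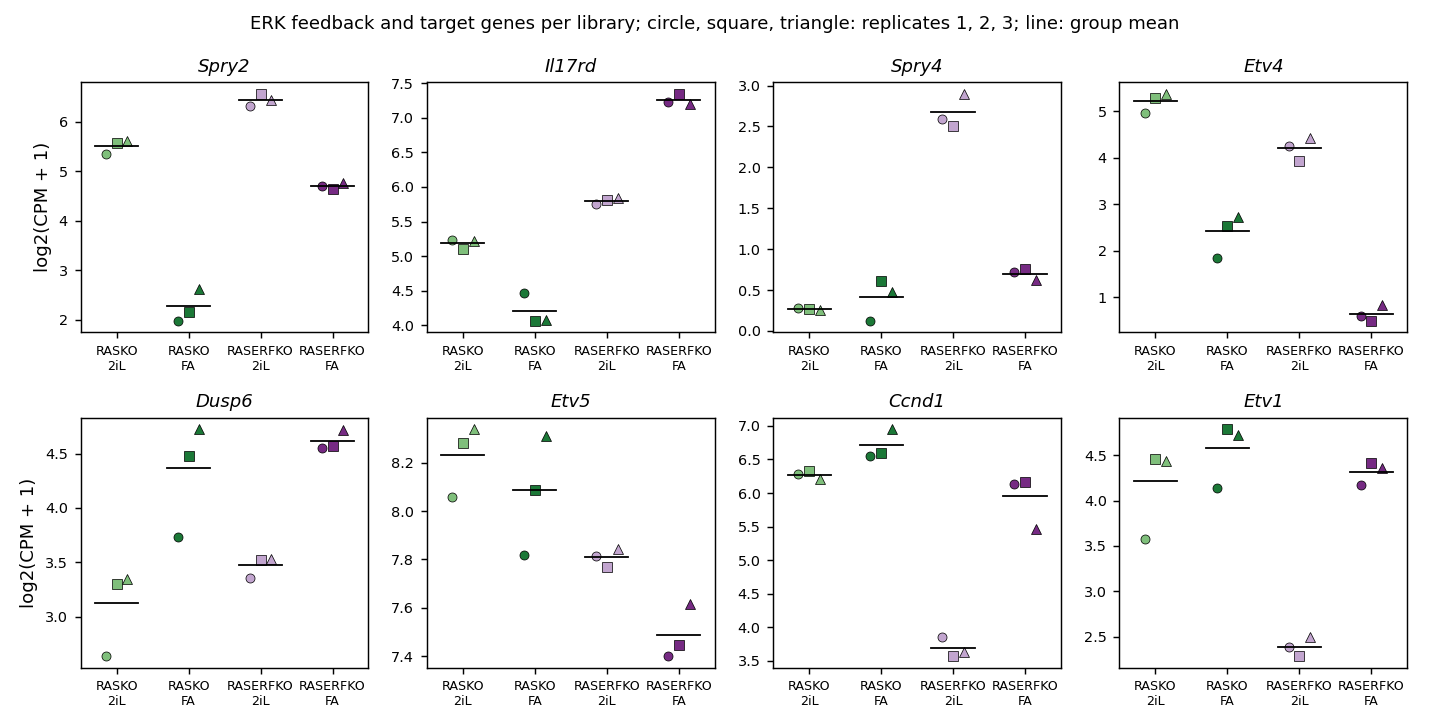
The y axes give log2(CPM + 1) per library for 8 genes that report or restrain ERK signalling, with the 4 groups on the x axis; symbols are replicates and lines are the log2 of the group's mean CPM + 1. Spry2 and Il17rd are lowest in RASKO in FA, Spry4 is high in RASERFKO in 2iL alone, and Etv4 is lowest in RASERFKO in FA.

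Among the other ETS factors with repressor function, Etv6 had an interaction of 1.10 (SE 0.18, adjusted p = 8.61e-05), which fell to 0.98 without RASERFKO replicate 1 in 2iL. Elk3 had an interaction of -1.08 (SE 0.27, adjusted p = 0.00406), which fell below 2-fold without RASKO replicate 1 in FA (-0.82) or in both media (-0.87), or without RASERFKO replicate 2 in FA (-0.97). Etv3, the closest relative of ERF, was not called, at 0.29 (SE 0.13, adjusted p = 0.114). Of 11 FGF ligands and receptors 1 was called in each direction (5.59% and 5.74% of all genes). Fgf3 was called higher, at 1.74 (SE 0.38, adjusted p = 0.0014), and Fgf17 lower, at -2.76 (SE 0.67, adjusted p = 0.00408). With the replicate block within each line, and also without the low-count filter, 4 were called higher and 1 lower. The calls gained were Fgf5, Fgf8 (2.02, adjusted p = 0.027 with the block) and Fgfr2. Fgf4, the main FGF ligand of naive cells, was not called (-0.78 (SE 0.16, adjusted p = 0.000802)) although its means were 237 ± 31.6 CPM in RASKO and 108 ± 5.56 CPM (SD, n = 3) in RASERFKO in FA. Fgfr1 and Fgfr2, the receptors of the epiblast, were not called either, at -0.12 (SE 0.18, adjusted p = 0.672) and 1.18 (SE 0.57, adjusted p = 0.147); with the replicate block within each line Fgfr2 was called (1.17, adjusted p = 0.0083).

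The Activin and Nodal pathway, which the added Activin A feeds, had a share of calls near that of all genes. Of 15 tested genes 2 had a called lower interaction (5.74% of all genes) and none a higher one (5.59%), with a list median of 0.36. Lefty1, a Nodal antagonist and direct target, rose from 0.681 ± 0.0896 to 615 ± 115 CPM in RASKO and from 0.492 ± 0.0829 to 909 ± 107 CPM (SD, n = 3) in RASERFKO, and its interaction was 1.01 (SE 0.46, adjusted p = 0.112). The called genes were Pcsk6 (PACE4), a convertase that activates Nodal, at -1.40 (SE 0.14, adjusted p = 1.30e-07), and Fst (follistatin), which binds Activin, at -1.39 (SE 0.43, adjusted p = 0.0187). Fst lost its call without RASERFKO replicate 3 in 2iL (adjusted p = 0.0721) and without the culture with raised chromosome 8 expression (adjusted p = 0.083).

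Among WNT targets, 5 of 15 tested fell in FA in RASKO and 2 rose, whereas in RASERFKO 3 fell and 5 rose. The interaction was called higher for 5 (5.59% of all genes), and the list median of 1.58 stood beside 0.01 over all genes. Axin2, a negative regulator and direct WNT target, had 30.3, 46.1 and 43.6 CPM (2iL) and 5.39, 5.43 and 6.83 CPM (FA) in RASKO and 20.3, 16.9 and 17.8 CPM (2iL) and 10.1, 9.35 and 7.83 CPM (FA) in RASERFKO. RASERFKO was lower than RASKO in 2iL and higher in FA in every library, with an interaction of 1.75 (SE 0.31, adjusted p = 0.000278). Sp5, another direct target, fell from 6.34, 11.6 and 12.1 CPM to 0, 0.0405 and 0.324 CPM in RASKO, and from 0.797, 0.896 and 1.35 CPM to 0.354, 0.286 and 0.166 CPM in RASERFKO, with an interaction of 4.35 (SE 0.92, adjusted p = 0.00123). In RASERFKO Sp5 was thus low in both media. The size of its interaction rests on RASKO libraries in FA with almost no counts, and it ran from 3.84 to 6.71 over 20 alternatives. The other calls were Nkd1 (1.58), Cdx1 (2.07) and Cdx2, a caudal homeobox gene that was at or under 3 counts in RASERFKO in 2iL. Cdx1 lost its call without RASERFKO replicate 1 or 2 in FA or RASKO replicate 2 or 3 in FA (adjusted p from 0.0763 to 0.117). Lef1, a WNT effector, was not called, at 2.44 (SE 0.89, adjusted p = 0.0541). In 2iL 7 of the 15 WNT targets were called lower in RASERFKO than in RASKO (7.15% of all genes).

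LIF and STAT3 pathway genes had calls in the lower direction alone. Of 9 tested genes, 4 had a called lower interaction (5.74% of all genes) and the median was -0.91; without the chromosome 8 culture 3 were called and the median was -0.85. Lifr, the LIF receptor, stood at 48.4, 56.7 and 57.2 CPM in RASKO in 2iL and 53.4, 52.6 and 50.9 CPM in FA, against 106, 121 and 125 CPM and 28.9, 33.2 and 44.9 CPM in RASERFKO. It was higher in RASERFKO than in RASKO in 2iL and lower in FA in every library, with an interaction of -1.67 (SE 0.18, adjusted p = 5.77e-07). Socs3, the feedback inhibitor induced by STAT3, had 30.3, 34.2 and 33.7 CPM (2iL) and 4.64, 1.78 and 1.62 CPM (FA) in RASKO and 181, 205 and 200.3 CPM (2iL) and 5.05, 5.26 and 6.01 CPM (FA) in RASERFKO. RASERFKO was the highest group in 2iL, and the interaction was -1.53 (SE 0.30, adjusted p = 0.000783); it was no longer called without RASKO replicate 1 in FA, without that culture in both media, or with the replicate block within each line (adjusted p = 0.0699). Pim3 and Bcl3, targets of STAT3, had interactions of -1.59 (SE 0.18, adjusted p = 1.69e-06) and -1.56 (SE 0.22, adjusted p = 1.09e-05). Of 11 genes of the BMP pathway, 4 were called lower (5.74% of all genes), with a median of -0.74: Id4, Bmp4, Msx2 and Id1. Id1 (-1.49, adjusted p = 0.0447) lost its call in 9 of the 12 fits that left out 1 library. The BMP4 ligand gene, Bmp4, had 1.02, 1.37 and 1.06 CPM (2iL) and 0.394, 0.729 and 0.827 CPM (FA) in RASKO and 10.6, 9.41 and 11.3 CPM (2iL) and 1.64, 1.39 and 1.49 CPM (FA) in RASERFKO. Its high level in RASERFKO in 2iL set the interaction of -1.98 (SE 0.37, adjusted p = 0.000307). Id4 was instead lowest in RASERFKO in FA, with an interaction of -2.20 (SE 0.28, adjusted p = 4.68e-06).

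Some markers of other lineages moved with the contrast. The summed level of 13 early neural markers was 135 to 141 CPM in RASKO in 2iL and 230.4 to 243 CPM in FA, and 72.7 to 78.7 CPM and 288 to 298 CPM in RASERFKO. Zic1, Hes5, Neurog2 and Pax3 stayed under 1 CPM in every library. Of the 10 tested, 4 were called higher (5.59% of all genes), with a median interaction of 1.37: Pax6, Sox11, Tubb3 and Sox1. By sign, 7 interactions were positive and 3 negative. Between the lines in FA, 4 of the 10 were called higher in RASERFKO and 3 lower (8.13% and 8.48% of all genes). The median difference between the lines was -0.63 in FA and -0.74 in 2iL. Pax6, the eye and neural tube regulator, had 0.538, 0.964 and 0.823 CPM (2iL) and 5.17, 9.16 and 13 CPM (FA) in RASKO and 0.683, 0.392 and 0.472 CPM (2iL) and 30.4, 30 and 28.8 CPM (FA) in RASERFKO. It rose in both lines and stood highest in RASERFKO in FA, with an interaction of 2.28 (SE 0.54, adjusted p = 0.00312). Sox11 had 3.39, 3.15 and 3.39 CPM (2iL) and 5.78, 9.89 and 9.67 CPM (FA) in RASKO and 9.67, 12.2 and 9.7 CPM (2iL) and 87.1, 89.8 and 87 CPM (FA) in RASERFKO, with an interaction of 1.70 (SE 0.24, adjusted p = 1.77e-05). Sox1, a neural plate marker, had an interaction of 1.54 (SE 0.23, adjusted p = 2.66e-05).

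Primitive and visceral endoderm markers summed to 299 to 345 CPM in RASKO in 2iL, 276 to 353 CPM in RASKO in FA, 758 to 1256 CPM in RASERFKO in 2iL and 341 to 714 CPM in RASERFKO in FA. Sox7, Ttr, Afp and Apoa1 were under 1 CPM in every library of all 4 groups. Of 14 tested, 3 were called lower (5.74% of all genes): Hnf4a, a nuclear receptor, at -3.00 (SE 0.47, adjusted p = 4.39e-05), and the collagen IV genes Col4a1, at -2.72 (SE 0.65, adjusted p = 0.00552), and Col4a2, at -2.07 (SE 0.66, adjusted p = 0.0289). In 2iL Col4a1 had 66.2, 137 and 180.4 CPM in the RASERFKO libraries, against 14.4 to 17.3 CPM in RASKO. Col4a2 lost its call in 7 alternatives, among them without the culture with raised chromosome 8 expression (adjusted p = 0.0912). Trophoblast markers summed to 171 to 180.04 CPM, 108 to 115 CPM, 125 to 149 CPM and 60.9 to 68.9 CPM in the same order, and Plac1 was under 1 CPM in every library. Of 14 tested, 3 were called higher and 4 lower (5.59% and 5.74% of all genes), the latter including Ascl2 (-1.62). Tead4, a TEAD factor also expressed in stem cells, had an interaction of -2.47 (SE 0.18, adjusted p = 1.16e-09), and Tfap2c, an AP-2 factor of germ and trophoblast cells, one of -1.65 (SE 0.20, adjusted p = 4.61e-06). Both were lowest in RASERFKO in FA.

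Gata3 was highest in RASKO in FA, at 18.3, 18.5 and 17.5 CPM, against 3.70, 2.82 and 3.52 CPM in RASERFKO in FA, and at 3 counts or fewer in RASERFKO in 2iL, from which its response was at least 18.6-fold; its interaction was called higher. Gata2 (-2.35) and Hand1 (2.57) were called at adjusted p-values of 0.037 and 0.0343 and lost their calls in 8 alternatives each, for Gata2 among them the fit without the chromosome 8 culture (adjusted p = 0.0535). Mesoderm and definitive endoderm markers summed to 12.9 to 25.2 CPM over all 4 groups, with 1 of 10 tested called in each direction (Mixl1 and Cxcr4), near the shares of all genes (5.59% and 5.74%). Both were below 2 CPM in all FA libraries and lost their calls in 8 and 3 alternatives, for Cxcr4 among them the fit without the chromosome 8 culture (adjusted p = 0.118). Fibroblast markers summed to 19.4 to 22.9 CPM, 4.42 to 6.35 CPM, 14.6 to 21.7 CPM and 10.2 to 12.1 CPM in the order above, and Col3a1, Postn and Lum were under 1 CPM everywhere. Of these, Col1a1 was called higher, at 2.57 (SE 0.34, adjusted p = 5.40e-06). The part of these markers in the other results was not tested.

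Adhesion genes changed individually. Of 10 tested genes of cadherins and the epithelial to mesenchymal transition, 3 were called higher and 1 lower (5.59% and 5.74% of all genes), with a median of 0.36. Epcam, Vim and Cdh2, given above, were the higher ones and Fn1 the lower one. Epcam, an epithelial adhesion molecule, stood at 45.6, 30.2 and 34.7 CPM in RASKO in 2iL and 36.4, 31 and 28.8 CPM in FA, against 33.2, 31.6 and 34.6 CPM and 101, 105 and 121 CPM in RASERFKO. The RASERFKO libraries in FA stood above all others, and its interaction was 1.92 (SE 0.25, adjusted p = 1.76e-05). Vim, which encodes the intermediate filament vimentin, had an interaction of 1.15 (SE 0.24, adjusted p = 0.00163), and Fn1, which encodes fibronectin, one of -1.09 (SE 0.16, adjusted p = 1.70e-05). Fn1 fell below 2-fold without the culture with raised chromosome 8 expression (-0.93). Cdh1, which encodes E-cadherin, was not called, at -0.42 (SE 0.31, adjusted p = 0.355). Among 11 genes of the apical domain and lumen, 1 was called in each direction (5.59% and 5.74% of all genes): Marveld3, at 1.95 (SE 0.58, adjusted p = 0.0149), which lost its call without RASKO replicate 2 in FA (adjusted p = 0.0512), and the tight junction gene Cldn4, at -1.44 (SE 0.39, adjusted p = 0.0122), which lost it without the chromosome 8 culture (adjusted p = 0.0557). Podxl, which encodes podocalyxin of the pro-amniotic lumen, was not called (-0.18 (SE 0.34, adjusted p = 0.746)).

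Of 8 DNA methylation genes, Dnmt3b alone was called (11.3% of all genes were called in either direction), and its partner genes Dnmt3a and Dnmt3l had interactions of -0.25 (SE 0.16, adjusted p = 0.287) and -0.98 (SE 0.41, adjusted p = 0.0924). Asz1, a germline gene, was the 1 of 15 methylation-controlled germline genes called, near the 5.74% of all genes called lower, at -1.89 (SE 0.47, adjusted p = 0.00418). Cyclin D3, encoded by Ccnd3, stood at 154, 183 and 187 CPM in RASKO in 2iL and 133, 145 and 135 CPM in FA, against 192, 199 and 215 CPM and 62.6, 67.1 and 63.4 CPM in RASERFKO. It was lowest in RASERFKO in FA, with an interaction of -1.30 (SE 0.14, adjusted p = 2.61e-07), and it was 1 of 2 calls among 12 cell cycle genes (11.3% of all genes), the other being Ccnd1. Of 18 p53 targets, 1 was called lower, near the 5.74% of all genes, Pmaip1 (Noxa), at -1.60 (SE 0.27, adjusted p = 0.0002), and the median was -0.34. Genes of the integrated stress response leaned upward, with 5 of 12 called higher (5.59% of all genes) and a median of 0.72. Without the chromosome 8 culture 3 were called and the median was 0.93. Atf5 (1.31, adjusted p = 0.0388) lost its call in 11 of 20 alternatives and Ddit4 (1.04) in 6. Trib3, a pseudokinase induced by ATF4, fell in RASKO from 17.7, 18 and 18.6 to 6.62, 6.97 and 4.46 CPM and in RASERFKO had 23.5, 19.1 and 21.5 CPM in 2iL and 26.7, 29.1 and 47.4 CPM in FA, with an interaction of 2.28 (SE 0.43, adjusted p = 0.000811). Slc7a11, the cystine transporter, had an interaction of 3.00 (SE 0.41, adjusted p = 9.11e-06), and Chac1, a glutathione-degrading enzyme, one of 2.03 (SE 0.42, adjusted p = 0.00144).

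**Figure D4:**
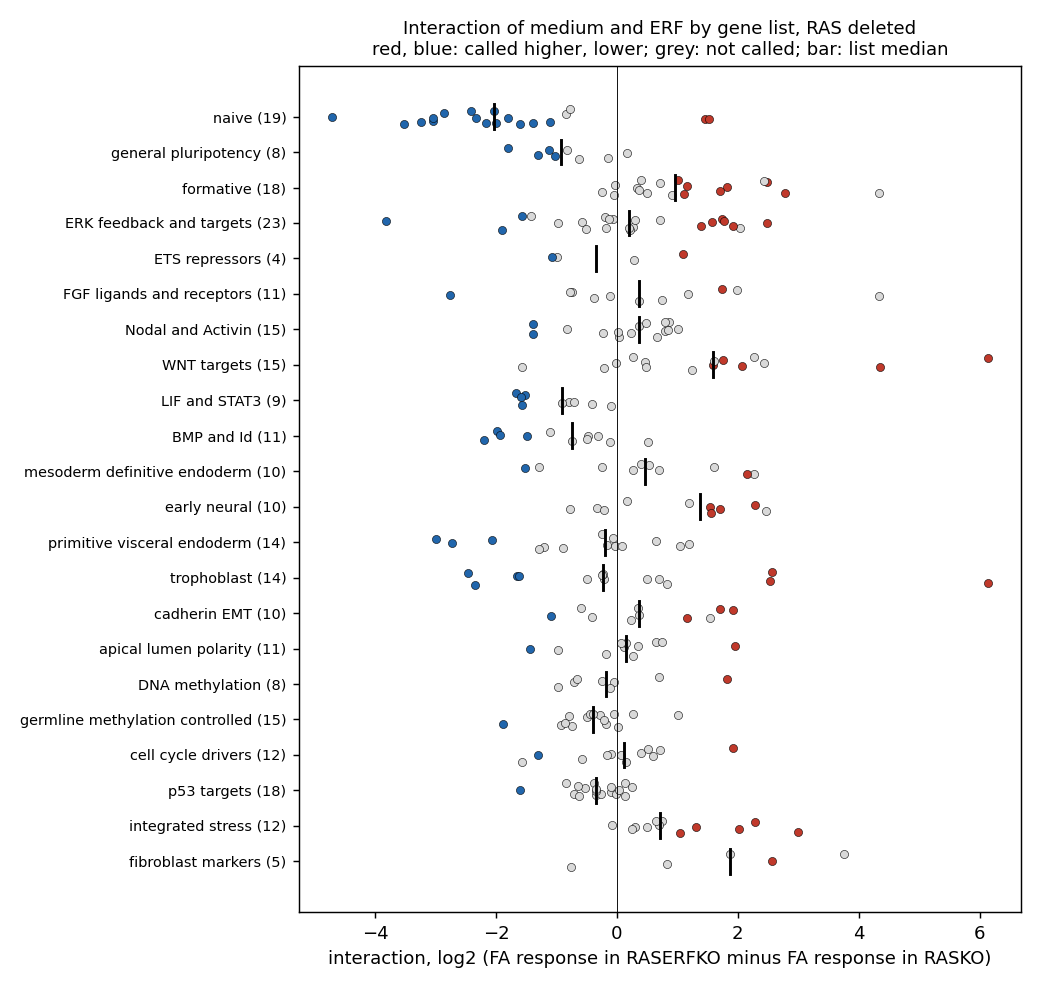
Each dot is the fitted log2 interaction (x axis) of 1 tested gene of the list named on the y axis, with the number tested in brackets, red where called higher, blue where called lower and grey where not called; bars are list medians, and dots are spread vertically for legibility. The naive list lies mostly below zero (median -2.03) and the formative (0.96), WNT target (1.58) and early neural (1.37) lists mostly above it.

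The genes with the most negative interactions on the CPM scale, among those with at least 5 CPM in some group and no overlap of the responses, differed in the groups where they were high. Beside Klf4, Esrrb and Tbx3 they were H19, Gprc5a, Jam2, Aqp3, Dnajc6, Sdc4 and Kifc3. Jam2 (chr16:84774123-84826380), a junctional adhesion molecule, had 135, 131 and 140.1 CPM (2iL) and 130.4, 88.5 and 82.8 CPM (FA) in RASKO and 207, 224 and 218 CPM (2iL) and 9.11, 6.9 and 6.51 CPM (FA) in RASERFKO. RASKO replicates 2 and 3 were lower in FA than any RASKO library in 2iL while replicate 1 stayed near its 2iL level, and RASERFKO in FA stood below every other library, with an interaction of -4.41 (SE 0.22, adjusted p = 2.55e-11). Aqp3 (chr4:41092724-41098183), an aquaglyceroporin, had 269.6, 215 and 231 CPM (2iL) and 184, 63.8 and 48.8 CPM (FA) in RASKO and 80.5, 89.2 and 80.9 CPM (2iL) and 1.64, 1.18 and 0.746 CPM (FA) in RASERFKO. RASKO replicate 1 in FA was well above its fellow replicates, and all RASERFKO libraries in FA were below 2 CPM, giving an interaction of -4.82 (SE 0.61, adjusted p = 2.34e-05). Sdc4 (chr2:164424247-164443188), a heparan sulfate proteoglycan that binds FGF and carries the hexamer shown above, had 97.5, 98.6 and 98.8 CPM (2iL) and 84.7, 77.6 and 74.7 CPM (FA) in RASKO and 185, 222 and 221 CPM (2iL) and 15.2, 14.7 and 17.2 CPM (FA) in RASERFKO. It was higher in RASERFKO than in RASKO in 2iL and lower in FA, with an interaction of -3.42 (SE 0.24, adjusted p = 9.48e-09). Dnajc6, which encodes the clathrin uncoating factor auxilin, had an interaction of -3.77 (SE 0.19, adjusted p = 9.36e-12).

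H19 (chr7:142575530-142578146), an imprinted noncoding RNA, was instead under 1 CPM in every library in 2iL. It stood at 0.161, 0.355 and 0.242 CPM in RASKO in 2iL and 69.3, 155 and 229 CPM in FA, against 0.341, 0.784 and 0.472 CPM and 1.64, 3.67 and 1.95 CPM in RASERFKO. It rose in both lines, to much higher levels in RASKO, where the 3 libraries differed by more than 2-fold, and the interaction was -7.05 (SE 1.61, adjusted p = 0.00383). The genes with the most positive interactions were Oasl2, Fat3, Plac9b, Igfbp5, Sp8, Psmb8, Wt1, Dtx4, Pdzrn4 and Cplx2, and all 10 rose in FA in RASERFKO. Fat3, an atypical cadherin, had 0.215, 0.406 and 0.678 CPM (2iL) and 0.701, 0.648 and 0.395 CPM (FA) in RASKO and 1.02, 0.616 and 0.674 CPM (2iL) and 23.1, 23.8 and 19.2 CPM (FA) in RASERFKO. Only RASERFKO in FA was above 2 CPM, and the interaction was 4.44 (SE 0.57, adjusted p = 4.89e-06). Igfbp5 (chr1:72858065-72874865), an IGF binding protein, had 2.53, 1.93 and 1.65 CPM (2iL) and 4.78, 4.98 and 5.93 CPM (FA) in RASKO and 0.398, 0.336 and 0.135 CPM (2iL) and 18.8, 27.3 and 23.9 CPM (FA) in RASERFKO. It rose in both lines, from a lower level and to a higher one in RASERFKO, with an interaction of 4.90 (SE 0.40, adjusted p = 5.65e-09). Sp8, a zinc finger factor of limb and forebrain, had 1.61, 0.812 and 0.726 CPM (2iL) and 0.613, 0.77 and 2.84 CPM (FA) in RASKO and 0.683, 0.672 and 0.876 CPM (2iL) and 18.2, 18.1 and 16.7 CPM (FA) in RASERFKO, with an interaction of 4.10 (SE 0.65, adjusted p = 9.48e-05).

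Wt1, the Wilms tumour factor, had an interaction of 5.20 (SE 0.39, adjusted p = 1.93e-09), and its RASKO libraries stayed between 1.77 and 2.23 CPM in both media. Dtx4, a ubiquitin ligase of the Notch pathway, had 3.68 (SE 0.30, adjusted p = 7.80e-09), and Cplx2, a synaptic complexin, 3.72 (SE 0.44, adjusted p = 1.18e-06). Psmb8, a subunit of the immunoproteasome, was below 0.4 CPM in all libraries but those of RASERFKO in FA, at 10.3, 8.53 and 7.50 CPM, with an interaction of 6.09 (SE 1.10, adjusted p = 0.000275). Oasl2, an interferon-stimulated gene, was at 3 counts or fewer in RASERFKO in 2iL and at 26.9, 27.4 and 23.7 CPM in FA, at least 144-fold higher, where RASKO had 0.92, 1.38 and 3.56 CPM in FA. Plac9b, at 4.45 (SE 0.30, adjusted p = 2.91e-10), has a near-identical copy, Plac9a, between which the reads could be split, so its level is uncertain.

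In 81 genes the response was called in both lines in opposite directions, 32 of them lower in RASKO and higher in RASERFKO and 49 the reverse. Gprc5a (chr6:135065662-135084709), an orphan receptor induced by retinoic acid, stood at 9.14, 4.16 and 4.6 CPM in RASKO in 2iL and 27.8, 27.2 and 24.9 CPM in FA, against 19.1, 24.1 and 24.6 CPM and 2.25, 2.08 and 3.23 CPM in RASERFKO. It rose in RASKO and fell in RASERFKO, so that the order of the lines in 2iL was reversed in FA, with an interaction of -5.33 (SE 0.40, adjusted p = 1.17e-08). H2-Ab1, a class II histocompatibility gene, had 11.6, 9.69 and 11.5 CPM (2iL) and 30.5, 30.8 and 24.4 CPM (FA) in RASKO and 7.51, 7.06 and 7.35 CPM (2iL) and 1.58, 1.55 and 1.7 CPM (FA) in RASERFKO. It was highest in RASKO in FA and lowest in RASERFKO in FA, with an interaction of -3.57 (SE 0.27, adjusted p = 2.79e-09). Porcn, the acyltransferase that WNT ligands need for secretion, had 7.1, 6.04 and 8.28 CPM (2iL) and 20.7, 23.1 and 24.7 CPM (FA) in RASKO and 20.3, 18.5 and 18.7 CPM (2iL) and 7.4, 7.14 and 10.2 CPM (FA) in RASERFKO. The RASKO libraries in FA and the RASERFKO libraries in 2iL were the high ones, and the interaction was -2.90 (SE 0.22, adjusted p = 2.94e-09). Kifc3, a kinesin, and Slco4a1, an organic anion transporter, had interactions of -3.94 (SE 0.34, adjusted p = 2.00e-08) and -3.55 (SE 0.35, adjusted p = 9.32e-08).

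In the other direction, Pon2, a paraoxonase, stood at 2.37, 1.93 and 1.4 CPM in RASKO in 2iL and 0.438, 0.446 and 0.467 CPM in FA, against 1.65, 1.4 and 1.21 CPM and 5.12, 6 and 6.76 CPM in RASERFKO. It was lower in FA than in 2iL in every RASKO library and higher in every RASERFKO library, with an interaction of 4.11 (SE 0.33, adjusted p = 4.07e-09). Pdzrn3, a ubiquitin ligase of the neuromuscular junction, and Parp9, an ADP-ribosyltransferase induced by interferon, had interactions of 3.28 (SE 0.40, adjusted p = 2.13e-06) and 2.88 (SE 0.28, adjusted p = 1.46e-07). Pdzrn4, a relative of Pdzrn3, had 3.06, 7.51 and 6.34 CPM in RASKO in 2iL and was at 3 counts or fewer in RASKO in FA, at least 46.9-fold lower. In RASERFKO Pdzrn4 was at 3 counts or fewer in 2iL and at 0.386, 0.694 and 0.414 CPM in FA, at least 2.76-fold higher.

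The same contrast was computed in the 11 libraries with RAS present, where the group with ERF wild type in FA held 2 libraries, and the difference of both interactions was tested in the same model. In those libraries the interaction passed for 870 genes (4.27%), a share of 2.22% in the positive and 2.05% in the negative direction, and the difference between the RAS states was called for 1947 genes (9.56%), 867 of them positive (4.26%) and 1080 negative (5.3%); without the 2-fold minimum 3362 passed (16.5%). Of the 1138 higher genes, 121 were also called higher with RAS present and 491 had a called positive difference. Of the 1170 lower genes, 116 were also called lower with RAS present and 611 had a called negative difference. Since the genes were chosen by 1 of the 2 interactions, these counts describe them and test nothing further. The RAS present libraries had not received 4-hydroxytamoxifen, so RAS state and drug cannot be told apart here.

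For the naive genes the difference was clearest. With RAS present the median interaction of the 19 was -0.01, and the difference was called negative for 15 and positive for 2 (5.3% and 4.26% of all genes). Klf4 had an interaction of 0.38 with RAS present, and the difference was -3.90 (SE 0.28, adjusted p = 8.31e-09). Tbx3 differed by -4.62 (SE 0.52, adjusted p = 1.77e-05), Esrrb by -2.74 (SE 0.27, adjusted p = 1.04e-06), Prdm14 by -3.62 (SE 0.62, adjusted p = 0.00042) and Nanog by -1.75 (SE 0.30, adjusted p = 0.000518). For Pou3f1 the difference was 3.10 (SE 0.88, adjusted p = 0.0238) and for Dnmt3b 2.13 (SE 0.58, adjusted p = 0.0197), and 6 of the 18 formative genes had a called positive difference (4.26% of all genes). Spry2 changed sign: its interaction was -1.41 (SE 0.20, adjusted p = 0.0001) with RAS present, called, and the difference was 3.15 (SE 0.29, adjusted p = 3.54e-07). Il17rd differed by 3.41 (SE 0.20, adjusted p = 2.74e-10) and Etv4 by -2.51 (SE 0.44, adjusted p = 0.000599). For some genes no difference between the RAS states was called. Spry4 had an interaction of -4.43 with RAS present and a difference of 0.60 (SE 0.73, adjusted p = 0.646), and H19 had -6.62 and a difference of -0.43 (SE 1.94, adjusted p = 0.92).

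**Figure D5:**
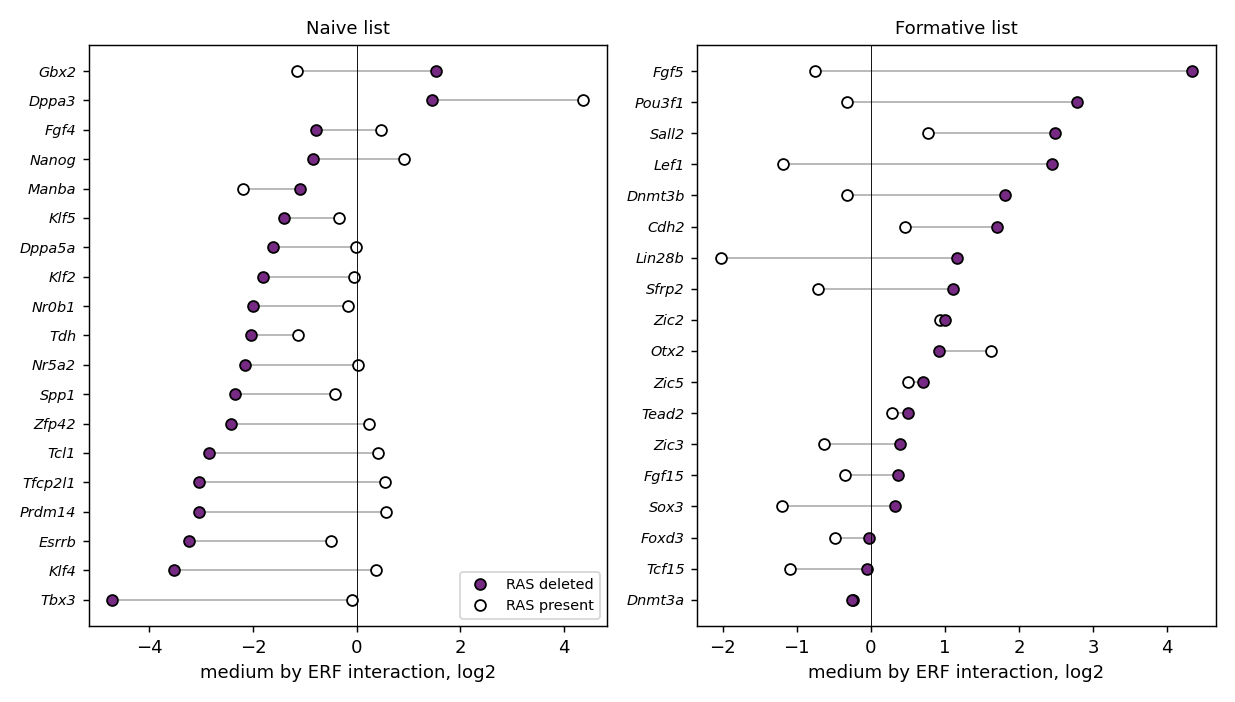
For each of the 19 naive (left) and 18 formative genes (right) on the y axes, the x axis gives the fitted log2 interaction with RAS deleted (purple) and with RAS present (white), without error bars; the Fgf5 value rests on a group at 3 counts or fewer. Klf4, Tbx3, Prdm14 and Tfcp2l1 lie far below zero with RAS deleted and near zero with RAS present, and Manba is below zero in both states.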

How the data were processed

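RNA-seq of mouse embryonic stem cells was deposited as 1 table of counts for 23 libraries and 1 salmon-format table per library that lists estimated counts by gene symbol, per the file headers; the counts equal the authors' estimated counts rounded to whole numbers, and neither table is normalized. The submitters' processing notes name bcl2fastq 2.20.0, fastp 0.20.0, Salmon and mm10; the annotation is not given in the sources used here. Salmon shares reads among similar transcripts, so close paralogs are less certain. Libraries were grouped by their titles. The predicted gene Gm26917 took 17.6 to 27.9% of the counts and was removed in 1 alternative.

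Counts were tested with edgeR 4.0.16 (R 4.3.3): filterByExpr, TMM, a robust quasi-likelihood fit with 1 coefficient for each of 8 groups over all 23 libraries, so that the groups share 1 estimate of the spread, and 20372 of 53607 gene rows tested. The SE is the absolute log2 change divided by the square root of F. CPM were taken on TMM-scaled library sizes. A group was at the floor when each library held at most 3 counts; lower bounds on a fold use 3 counts in each library. On simulated counts with known interactions (20007 genes in that step), 96 of 100 genes changed by a log2 of 1.5 and 100 of 100 changed by 2.5 were recovered, with 4 false calls. The changed genes were drawn from those well above the floor in every group, and no culture effect was simulated. This recovery therefore does not cover genes near the floor or differences between cultures.

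Genes named were a preset core of 18 (the targeted genes and pluripotency and ERK genes); the 10 strongest calls in each direction by log2(group mean CPM + 1), with responses that do not overlap and at least 5 CPM in some group, predicted genes passed over; up to 3 calls per list and direction; and the 5 strongest calls per direction with opposite responses. Other list members are named to complete a count, chosen after their values were seen. The contrast, the members and the lists were chosen with earlier results of these data known. Gene coordinates and promoters are from RefSeq (GRCm38.p6). Some genes are not reported here.

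Same-numbered libraries of a line deviated together across media (correlations 0.10 to 0.31 over 6 pairs, by the labels' replicate numbers), so a fit with the number as a block within each line was added after the data were seen. RASKO replicate 2 in 2iL and replicate 3 in FA, numbered differently, reached 0.18. Same-numbered libraries of different lines ran from -0.06 to 0.18 over 12 pairs, so the numbers are not shown to be a pairing. Replicate libraries of a group differed beyond counting noise in all 12 pairs (chi-square per degree of freedom from 3.04 to 44.9). Alternatives were DESeq2 1.42.0, its size factors, no low-count filter, no fold minimum, a test against 1.5-fold, the 12 libraries alone, a replicate block and each library left out.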

Additional observations from a re-analysis of the deposited data

Results flagged for a closer look

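The response to FA differed between the lines with and without ERF in 2308 genes with RAS deleted, by the interaction test. The interaction itself differed between RAS deleted and RAS present cells in 1947 genes, by the test of that difference in the same model. Among the 36 genes of the preset core and of the strongest calls, the difference was called for 23 (9.56% of all genes), a count that tests nothing further, since the 20 strongest calls were chosen by 1 of the 2 interactions subtracted. Of the 23, 11 were negative and 12 positive.

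The naive genes among them had negative differences (RAS deleted minus RAS present, log2): Tbx3 -4.62, Klf4 -3.90, Prdm14 -3.62, Esrrb -2.74 and Nanog -1.75. Negative differences were also called for the water channel gene Aqp3 (-6.85), the junction gene Jam2 (-4.82), Dnajc6 (-4.54), Gprc5a (-4.19), Sdc4 (-3.27) and the ETS gene Etv4 (-2.51). Positive differences were called for the formative genes Pou3f1 (3.10) and Dnmt3b (2.13) and for the RAS pathway inhibitor Spry2 (3.15). They were also called for Pdzrn4 (6.66), whose fitted value rests on groups at 3 counts or fewer, for the immunoproteasome gene Psmb8 (5.74), Fat3 (4.91), Sp8 (4.06), Igfbp5 (3.75), Wt1 (3.74), Dtx4 (3.38), Cplx2 (3.03) and Plac9b (2.60). The RAS deleted libraries all received 4-hydroxytamoxifen and the others did not, so drug and RAS state cannot be told apart in these values.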

How the results depend on the processing

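None of the 128 called genes among the 336 named or listed changed sign in the 20 alternatives run on them. List medians near 0 changed sign: the imprinted list from 0.12 to -0.01 without RASERFKO replicate 2 in 2iL, the FGF list from 0.36 to -0.01 without RASKO replicate 1 in 2iL and to -0.11 without that culture, the trophoblast list from -0.23 to 0.34 without RASKO replicate 3 in FA, and the primitive endoderm list from -0.20 to 0.00052 without RASKO replicate 3 in 2iL. The count of interaction calls was 2252 with DESeq2, 2314 with its size factors, 2564 without the low-count filter, 2233 with the 12 libraries alone, 2318 without Gm26917 and 1597 in a test against a 1.5-fold change, of which 754 were higher. Without the 2-fold minimum 5375 genes passed, 2566 higher and 2809 lower, and the difference between the RAS states passed for 3362, 1561 higher and 1801 lower. Fits that each dropped 1 of the 12 libraries made 2078 to 2509 calls, 1023 to 1194 of them higher and 1046 to 1315 lower. For the difference between the RAS states 23 such fits made 1599 to 2344 calls, 705 to 1032 higher and 894 to 1360 lower. With CCGGAAGT in place of CCGGAA, 2.2% of the promoters of higher genes and 2.78% of those of lower genes held the letters. The replicate block over the 12 libraries gave 2251 calls, and the block within each line gave 2328, of which 2106 were among the 2308. Of the 336 genes, the fit with the block within each line, which also used the 12 libraries alone, lost the calls of Tdh, Zic2 and Socs3 and gained 8, Erf, Fgf5 and Fgfr2 among them. Of these changes, the 12 libraries without a block already lost Zic2 and gained Erf, Dusp4 and T. Of 84 called genes taken by the naming rule, 69 kept their call and direction throughout those alternatives; with all list members it was 99 of 128. Of 1860 values under the rule, 57 lost the call and 20 gained one. Lef1 gained a call in 4 alternatives, and Lefty1 and Dnmt3l in 2 each. Calls lost on leaving out 1 library were not tested against depth.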

Other observations

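Interferon-stimulated and antigen presentation genes were listed after the data were seen, because Oasl2, Psmb8 and Parp9 were among the strongest calls. Of 28 such genes 24 were tested, 9 had a called higher interaction and 4 a called lower one (5.59% and 5.74% of all genes), and the median was 0.75. The 9 include Oasl2, Psmb8 and Parp9, so the count describes the list and tests nothing. Irf1, a transcription factor of the interferon response, had 15.7, 25.4 and 31.5 CPM in FA in RASKO and 107, 97.3 and 98.1 CPM in RASERFKO, without overlap, and an interaction of 1.27 (SE 0.35, adjusted p = 0.0109). Psmb10, an immunoproteasome subunit like Psmb8, had 2.76, 2.19 and 2.73 CPM in FA in RASKO and 25.6, 22.9 and 21.1 CPM in RASERFKO, with an interaction of 2.37. Bst2 (tetherin) fell in RASKO and was not called in RASERFKO, with an interaction of 1.89, and Dtx3l, the partner of Parp9, had 2.88. The class II genes went the other way. H2-Aa rose in RASKO to 6.05, 5.75 and 4.35 CPM and had 0.966, 0.571 and 0.539 CPM in FA in RASERFKO, with an interaction of -2.12, beside the lower interaction of H2-Ab1 in the report.

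Imprinted genes, listed after H19 was seen among the strongest calls, had 4 higher and 2 lower calls of 24 tested (5.59% and 5.74% of all genes), with a median of 0.12. H19 is itself among the 2 lower calls, so this count too only describes the list. Without the RASKO culture with raised chromosome 8 expression 3 were called higher, Peg10 being lost, and the median was 0.02. Phlda2, a placental growth restrictor, was called lower in FA in RASKO and higher in RASERFKO, with an interaction of 2.47. Dlk1, a Notch ligand homologue, had 5.00, 5.51 and 6.76 CPM in FA in RASKO and 14.9, 17.6 and 12.3 CPM in RASERFKO, with an interaction of 2.05. Plagl1, a zinc finger factor, had an interaction of -2.05, and Igf2, the neighbour of H19, was not called (0.08, adjusted p = 0.928). The 13 mitochondrial messenger RNAs summed to 8391 to 8759 CPM in RASKO in 2iL, 5151 to 7707 CPM in RASKO in FA, 6359 to 7461 CPM in RASERFKO in 2iL and 6963 to 8548 CPM in RASERFKO in FA, and 6 of them had a called higher interaction (5.59% of all genes), 5 without the RASKO culture with raised chromosome 8 expression, where mt-Nd3 was lost and the median went from 0.99 to 0.82. Their part in the other results was not tested.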
